A study of Mus musculus with 4 samples.

Results

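The T cell receptor beta V and J segments are the gene pieces from which T cells assemble the variable domain of the receptor beta chain. Every gene whose name starts with Trbv or Trbj was taken from the deposited gene tables, which gave 49 segments, 35 V and 14 J, of 55487 genes in all. The annotation types 22 of the V segments and 13 of the J segments as genes and the other 13 and 1 as pseudogenes. All 49 lie on mouse chromosome 6 and were listed in every library.

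RNA was measured in 4 libraries labelled as skin regulatory T cells, 2 without ultraviolet light (non-UVB) and 2 with narrow-band ultraviolet B (UVB), numbered 1 and 2 within each group. Psoriasis-like dermatitis was raised on shaved mouse backs with 60 mg a day of Aldara, a cream holding 5% imiquimod, which activates the RNA sensor TLR7. The UVB mice were also irradiated 3 times, on alternate days. Strain, age, cell sorting and any pooling of animals were not given in the sources used here. The p-values therefore cover only library-to-library spread, which may be technical.

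Each developing alpha-beta T cell joins a V, a D and a J segment of the beta locus into a single exon, which is then spliced to a constant gene, so a mature T cell clone carries its own V and J choice in all of its beta chain RNA. Trbj1 segments lie just before the constant gene Trbc1 and Trbj2 segments just before Trbc2, and finished chains are mostly spliced to the constant gene next to their J. Incomplete D-to-J joins and unrearranged segments are also transcribed, in alpha-beta and in gamma-delta T cells, so J RNA need not come from a finished beta chain. Most V segments lie in a long array upstream of the D, J and C clusters, and Trbv31 alone lies downstream, in the opposite orientation.

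The V ends on which the results turn are shown as the last 45 bases of the annotated segment, which reach the conserved cysteine where the third complementarity-determining region starts. Sequences are from GENCODE M21 transcripts on GRCm38, 5′ to 3′ on the coding strand, and capitals mark the letters TGTGCCAGC, which encode that cysteine with alanine and serine, residues that other codons can encode as well. The first 3 reached 1 TPM, a level scaled to gene length and to the same total in every library, in all 4 libraries and the other 6 did so in both UVB libraries and in no non-UVB library.
Trbv13-2: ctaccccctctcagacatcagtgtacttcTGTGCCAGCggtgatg
Trbv1: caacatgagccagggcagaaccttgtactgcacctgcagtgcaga
Trbv31: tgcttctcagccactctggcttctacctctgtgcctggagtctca
Trbv4: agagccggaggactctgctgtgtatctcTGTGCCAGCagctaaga
Trbv13-3: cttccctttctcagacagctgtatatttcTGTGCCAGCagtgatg
Trbv15: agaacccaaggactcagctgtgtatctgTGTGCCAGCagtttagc
Trbv16: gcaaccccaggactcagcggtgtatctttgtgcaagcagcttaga
Trbv19: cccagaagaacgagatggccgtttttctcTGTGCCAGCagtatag
Trbv29: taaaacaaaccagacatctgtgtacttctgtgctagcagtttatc

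On the plus strand these ends were Trbv13-2 at chr6:41121788-41121832 and Trbv1 at chr6:40891841-40891885, then Trbv4 at chr6:41059842-41059886, Trbv13-3 at chr6:41130541-41130585, Trbv15 at chr6:41141614-41141658, Trbv16 at chr6:41152186-41152230, Trbv19 at chr6:41179004-41179048 and Trbv29 at chr6:41271837-41271881, and on the minus strand Trbv31 at chr6:41557691-41557735. The letters TGTGCCAGC stood in the same window of 17 of the 35 V segments (48.6%), 13 of them genes, and in 0 on the other strand. Of the 6 segments seen in both UVB libraries, Trbv4, Trbv13-3, Trbv15 and Trbv19 held them. Trbv13-2 held them among the 3 segments seen in every library.

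J segments are shown whole, with capitals on the first TTCGG or TTTGG, the start of the phenylalanine-glycine motif that closes the third complementarity-determining region. The first 5 are abundant segments, Trbj1-5 was seen in both UVB libraries alone, and the last 3 lack these letters.
Trbj1-1: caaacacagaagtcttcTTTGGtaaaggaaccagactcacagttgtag
Trbj1-2: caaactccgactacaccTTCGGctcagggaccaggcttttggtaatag
Trbj2-1: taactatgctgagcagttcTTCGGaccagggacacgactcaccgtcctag
Trbj2-3: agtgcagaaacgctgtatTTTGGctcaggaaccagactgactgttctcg
Trbj2-7: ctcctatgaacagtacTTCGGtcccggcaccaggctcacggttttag
Trbj1-5: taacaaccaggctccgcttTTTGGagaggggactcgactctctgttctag
Trbj1-6: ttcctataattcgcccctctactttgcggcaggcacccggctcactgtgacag
Trbj1-7: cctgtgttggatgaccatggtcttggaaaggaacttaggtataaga
Trbj2-6: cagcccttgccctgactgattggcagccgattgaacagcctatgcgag

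These J segments lie on the plus strand, Trbj1-1 at chr6:41533864-41533911, Trbj1-2 at chr6:41534001-41534048, Trbj2-1 at chr6:41542754-41542803, Trbj2-3 at chr6:41543223-41543271 and Trbj2-7 at chr6:41543810-41543856, then Trbj1-5 at chr6:41535084-41535133, Trbj1-6 at chr6:41535554-41535606, Trbj1-7 at chr6:41535642-41535687 and Trbj2-6 at chr6:41543598-41543645. TTCGG or TTTGG was found in 11 of 14 J segments (78.6%) and on the other strand of 0. All J exons have 46 to 54 bases, fewer than the 100 bases of a read, and the handling of reads that cross a V-D-J junction was not given in the sources used here. TPM divides by exon length, and V genes have 335 to 566 bases, so levels of J and V segments rest on very unequal lengths.

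The libraries differed in more than UVB. Values are given throughout in the order non-UVB 1, non-UVB 2, UVB 1 and UVB 2. FPKM values rested on 3.41, 2.47, 4.20 and 2.38 gigabases, and 7825, 8033, 10317 and 10227 genes reached 1 TPM. Foxp3, the defining factor of regulatory T cells, was listed at 0, 19.4, 3.49 and 19.3 TPM, and 6 regulatory T cell markers summed to 806, 4143, 1102 and 3439 TPM. The 9 gamma-delta T cell markers found, of 12 listed, summed to 9609, 177, 8809 and 307 TPM with none at 0 in any library, so both libraries numbered 1 were far above both numbered 2. Summed TPM was 318, 3254, 557 and 2968 for 6 keratinocyte markers and 9152, 3455, 14824 and 9980 for 10 macrophage and dendritic cell markers, of which Itgax had a value only in non-UVB 1. The 8 alpha-beta T cell markers summed to 3226, 5030, 2558 and 2832 TPM and 4 natural killer T cell markers to 4.77, 0, 0 and 0.022 TPM. Of these, Cd8a, Trav11, Trav11d and Klrb1c were listed at 0 in all 4 libraries. The alpha-beta sum includes Trbc1 and Trbc2, together 2804, 2235, 1719 and 1488 TPM. Outside the beta locus, Trac (274, 2350, 554 and 878 TPM) and Cd4 (6.02, 138, 33.9 and 71.6 TPM) were lowest in non-UVB 1. So was Cd5 (47.8, 221, 138 and 145 TPM), while Cd6 (94.0, 85.8, 114 and 250 TPM) was lowest in non-UVB 2. The parts of these differences in the results were not tested, and in such bulk RNA fewer cells of a type and less RNA per cell cannot be told apart.

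V segments were detected in greater number with UVB, and a set of 6 was present at 1 TPM or more in both irradiated libraries alone. The number of V segments at 1 TPM or more was 6 and 9 without UVB and 13 and 12 with it, a mean of 7.5 ± 2.12 against 12.5 ± 0.707 (SD, n = 2 each). The groups did not overlap, and the two-sided exact permutation p was 0.333, which 2 against 2 libraries cannot go below. All genes at 1 TPM also numbered more in both UVB libraries, by the counts above. Depth was highest in UVB 1 and lowest in UVB 2, and its part in these counts was not tested. In all, 17 V segments reached 1 TPM in some library, 18 in none, and 15 were listed at 0 throughout. Of the 13 V pseudogenes, Trbv24 alone had a value above 0, at 0.23 TPM in UVB 2.

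**Figure D1:**
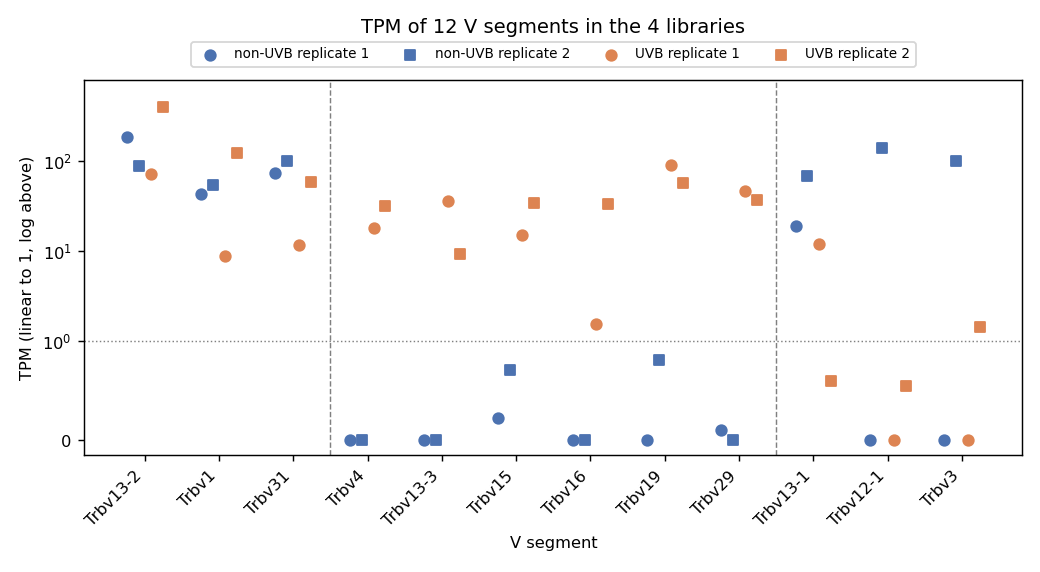
TPM of 12 V segments (vertical axis, linear up to 1 and logarithmic above) in the 4 libraries, with blue for non-UVB, orange for UVB, circles for replicate 1 and squares for replicate 2. Left of the dashed lines are the 3 segments present in every library, between them the 6 that lie above 1 TPM (dotted line) only in the UVB libraries, and on the right 3 that were highest in non-UVB 2.

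Trbv13-2 was the most abundant V segment over the 4 libraries, at 186, 88.7, 71.0 and 400 TPM (399.52 before rounding). It led in non-UVB 1 with 46.1% of all V TPM and in UVB 2 with 47.8%, and held 13.9% in non-UVB 2 and 18.2% in UVB 1. The groups overlapped, and its log2 difference, UVB minus non-UVB on log2(TPM + 1), was 0.39 ± 1.05 (SE), with a limma adjusted p of 1.0. Trbv1, the V segment farthest upstream at 642 kb from Trbd1, stood at 43.0, 54.0, 8.72 and 122 TPM. UVB 1 and UVB 2 enclosed both non-UVB values of Trbv1 (log2 difference -0.51 ± 1.47). Trbv31, the inverted segment 24.5 kb downstream of Trbd1, had 73.9 and 99.9 TPM in the non-UVB libraries against 11.6 and 58.4 TPM. Both UVB values of Trbv31 were below both non-UVB values, and its share of V was 18.4% and 15.7% against 2.97% and 6.99% (log2 difference -1.67 ± 1.02, limma adjusted p = 0.838). The difference was -0.55 without UVB 1 and -2.79 without UVB 2. Together these 3 segments, the only V segments at 1 TPM in every library, made up 75.1%, 38.1%, 23.4% and 69.4% of V.

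Trbv19 was the segment with the greatest gain in group mean share. Its non-UVB values were 0 and 0.80 TPM and its UVB values 90.3 and 56.9 TPM, or 23.1% and 6.81% of V in UVB 1 and UVB 2. Behind these values were 0, 780, 138689 and 52606 aligned bases. Trbv29 had 0.11 and 0 TPM against 47.1 and 37.1 TPM, from 87, 0, 45088 and 21385 aligned bases, so its non-UVB 1 value was less than the length of a read. Trbv13-3, a close relative of Trbv13-2, was listed at 0 without UVB in either library, against 36.2 and 9.27 TPM. For all of these the UVB libraries were both higher and the groups were far apart on this scale. The log2 differences were 5.76 ± 1.13 for Trbv19, 5.34 ± 1.03 for Trbv29 and 4.29 ± 1.06 for Trbv13-3. Their limma adjusted p-values over 10286 genes were 0.223, 0.223 and 0.235, so none passed 0.05.

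Trbv4, Trbv15 and Trbv16 share the pattern and were chosen after their values were seen. Trbv4 was listed at 0 and 0 TPM against 18.2 and 31.5 TPM. Trbv15 had 0.23 and 0.70 TPM against 15.2 and 34.4 TPM. Trbv16 was listed at 0 and 0 TPM against 1.54 and 33.3 TPM, so that its UVB 1 value lay just over the 1 TPM line. Log2 differences were 4.64 ± 0.94, 4.05 ± 1.07 and 3.22 ± 1.47, with limma adjusted p-values of 0.223, 0.257 and 0.643. For Trbv16 the difference was 1.35 without UVB 2 and 5.10 without UVB 1. Just outside the set lay Trbv14, also chosen after its values were seen, with 37.2 TPM in UVB 1 but 0.43 TPM in UVB 2 and listed at 0 in non-UVB 1 and non-UVB 2.

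The 6 segments together made up 0.0834% and 0.236% of V TPM without UVB and 53.4% and 24.2% with it. In TPM their sum was 0.336 and 1.51 against 208 and 202. Of the 17 V segments at 1 TPM in some library 6 had this pattern, beside 7.47% of the 13885 genes that reached 1 TPM anywhere (1.87% of all 55487), and 0 V segments had the opposite one, beside 0.907% (0.227%). The 6 segments lie between 262 and 474 kb upstream of Trbd1, with Trbv13-1, Trbv13-2, Trbv14 and others of unlike pattern interspersed. Set at 5 and 10 TPM, the line kept 5 and 4 of the 6, with Trbv4, Trbv15, Trbv19 and Trbv29 in both. At 0.1 TPM it kept 3 of the 6 (Trbv4, Trbv13-3 and Trbv16), added Trbv14 and lost Trbv15, Trbv19 and Trbv29, which have low values without UVB. At 1 TPM, leaving out each library in turn gave 6, or 7 without UVB 2, where Trbv14 joined them. The macrophage and dendritic cell marker sum was also higher in both UVB libraries (14824 and 9980 against 9152 and 3455 TPM). Among its members only Cd74 (4237 and 3838 against 3101 and 1940 TPM) and H2-Ab1 (2091 and 2102 against 1586 and 892 TPM) were. Lyz2, Csf1r, C1qa, C1qb, C1qc, H2-Aa and Cd207 overlapped between the groups, and Itgax had a value only in non-UVB 1. The part of these markers in the pattern was not tested. The gamma-delta marker sum (9609 and 177 TPM without UVB, 8809 and 307 TPM with it) did not split by UVB, and its part was not tested either.

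Trbv12-1 and Trbv3 were carried by 1 library. Trbv12-1 led non-UVB 2 with 141 TPM, 22.1% of V, while non-UVB 1, UVB 1 and UVB 2 had 0, 0 and 0.55 TPM. Trbv3, next in that library with 15.9% of V, had 0, 102, 0 and 1.44 TPM. Non-UVB 2 therefore sets the non-UVB mean of both. Trbv13-1 had 19.1 and 68.0 TPM in the non-UVB libraries against 12.01 and 0.59 TPM, groups that did not overlap (log2 difference -3.03 ± 1.61, limma adjusted p = 0.745, and -1.52 without UVB 2). Trbv20 was at 55.6, 0, 20.6 and 0.63 TPM and Trbv2 at 0, 66.1, 20.9 and 0 TPM, each with a high value in both groups. Trbv12-2 had 25.0, 15.0, 0 and 47.3 TPM, and here UVB 1 and UVB 2 were the lowest and the highest. Fitted differences were -0.34 ± 2.68 for Trbv20, -0.81 ± 2.87 for Trbv2, -1.56 ± 2.27 for Trbv12-2 and -2.70 ± 2.55 for Trbv3 on the log2 scale. Trbv5, chosen after its values were seen, reached at most 1.92 TPM.

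**Figure D2:**
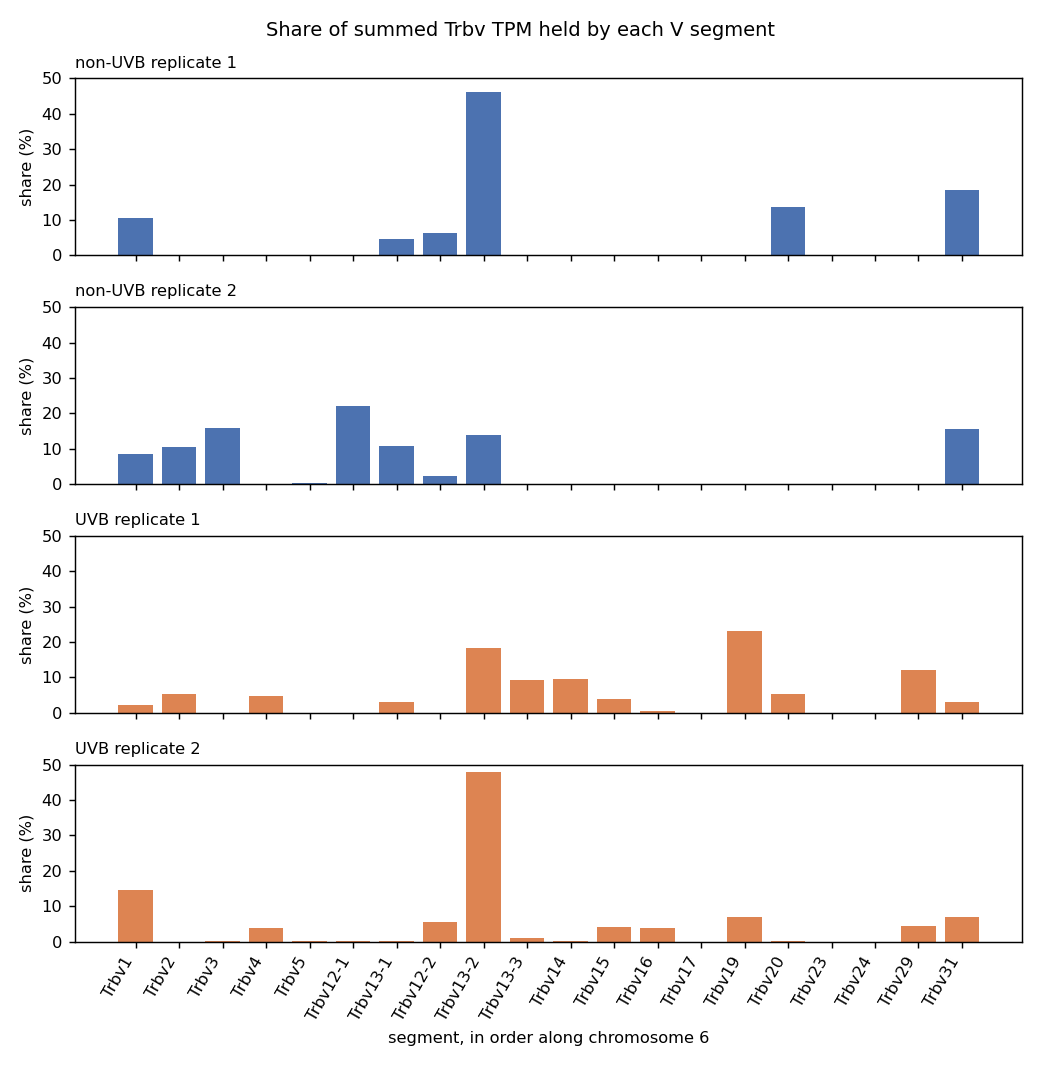
Share of summed V TPM (percent, vertical axis) for each V segment with a value above 0, in the order of the locus, with 1 panel per library and bars from 0. Trbv13-2 holds 46.1% in non-UVB 1 and 47.8% in UVB 2, while bars between Trbv13-3 and Trbv29, Trbv20 excepted, are visible only in the UVB panels.

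Segments of similar sequence could have exchanged reads. Of 231 pairs of V genes, 4 had at least 80% identity, and the 13 V pseudogenes were not compared. Trbv13-2 and Trbv13-3 had 90.6% with a longest shared run of 50 bases, Trbv13-1 had 88.7% with Trbv13-2 and 86.1% with Trbv13-3, and Trbv12-1 and Trbv12-2 had 88.3%. All shared runs were shorter than a read of 100 bases. In the libraries themselves Trbv13-3 was listed at 0, 0, 36.2 and 9.27 TPM, and Trbv13-2 at 186, 88.7, 71.0 and 400 TPM. Exchange of reads was not tested, so values of these 5 segments stay uncertain. Trbv4, Trbv15, Trbv16, Trbv19 and Trbv29 are in none of these pairs.

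The evenness of V use overlapped between the groups when all segments were counted. The effective number of V segments, the count of equally used segments that would give the same concentration (inverse Simpson index), was 3.54 and 6.76 without UVB and 7.67 and 3.71 with it. Non-UVB 1 and UVB 2 were the concentrated libraries, and Trbv13-2 led both. Without Trbv13-2, an alternative chosen after seeing the data, the index was 4.13 and 5.76 against 6.88 and 6.68, groups that no longer overlapped (exact permutation p = 0.333). With all V segments counted, Trbv13-2 included, the group means of the index were 5.15 ± 2.28 and 5.69 ± 2.80 (SD, n = 2 each; two-sided exact permutation p = 0.667). The leading V segment held 46.1% and 22.1% without UVB and 23.1% and 47.8% with it, means of 34.1% ± 17.0 and 35.5% ± 17.5 (exact permutation p = 0.667).

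The closest pair of V profiles crossed the groups. The share of V that a pair of libraries had in common, the sum over segments of the lower of their shares, was 45.2% for the non-UVB pair and 44.0% for the UVB pair. Non-UVB 1 and UVB 2 had 69.7% in common, the highest of the 6 pairs, and non-UVB 2 and UVB 1 had 27.8%, the lowest. Most of the 69.7% was Trbv13-2, which held 46.1% of V in non-UVB 1 and 47.8% in UVB 2. Pairs were not compared without Trbv13-2. Libraries of the same number shared 31.8% (number 1) and 32.5% (number 2). Counted by presence at 1 TPM the order was different, since the UVB libraries had 9 segments in common of 16 in either, and non-UVB 1 and UVB 2 had 4 of 14.

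At 1 TPM, 8 of the 14 J segments were found in all 4 libraries, against 3 of 35 V segments, 13 of them pseudogenes. On the short J exons this line takes fewer aligned bases. In non-UVB 2, Trbj1-4 passed it with 1.45 TPM from 127 aligned bases, while Trbv19 missed it with 0.80 TPM from 780. The J and V counts therefore do not show that J use was wider. Trbj2-7 had 109, 217, 119 and 209 TPM, higher in both libraries numbered 2, where it held 33.1% and 33.5% of J TPM. Its group means were nearly equal, with a log2 difference of 0.03 ± 0.62. Trbj1-2 had 263 and 225 TPM against 189 and 57.2 TPM with UVB, and led J use in non-UVB 2 with 34.3% of J and in UVB 1 with 18.3%. Trbj2-3 had 174 and 86.9 TPM against 65.3 and 37.5 TPM. For both, every UVB value was below every non-UVB value, with log2 differences of -1.21 ± 0.74 and -1.29 ± 0.69 and limma adjusted p-values of 0.839 and 0.745. Without UVB 2 the former was -0.36, and without non-UVB 1 the latter was -0.80. Trbj2-5, chosen after its values were seen, followed them at a lower level, with 27.1 and 25.7 against 15.2 and 10.4 TPM.

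Trbj2-1 led non-UVB 1 with 335 TPM, 23.9% of J, and stood at 7.93, 116 and 43.5 TPM in non-UVB 2, UVB 1 and UVB 2. Trbj1-1 had 222, 40.2, 124 and 57.2 TPM and Trbj1-3 had 178, 0.94, 129 and 54.7 TPM. All 3 were highest in non-UVB 1, next in UVB 1 and lowest in non-UVB 2, so the groups overlapped. Trbj2-4 ran otherwise, with 9.04, 49.9, 36.8 and 61.6 TPM. The log2 differences of these 4 were 0.40 ± 2.02, -0.17 ± 1.08, 2.19 ± 2.47 and 1.11 ± 1.13.

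Trbj1-5 was the J segment with the V pattern described above: it was listed at 0 without UVB, and UVB 1 and UVB 2 had 42.9 and 26.4 TPM, 4.15% and 4.24% of J. Chosen after its values were seen, it had a log2 difference of 5.12 ± 1.01 (limma adjusted p = 0.223). Only 1 of the 14 J segments had this pattern, a share near the 7.47% of the 13885 genes that reached 1 TPM anywhere. The J segments with neither TTCGG nor TTTGG were Trbj1-6 at 28.1, 0.13, 35.7 and 0 TPM, Trbj1-7 at 0, 0.72, 46.0 and 0 TPM, and the pseudogene Trbj2-6 at 0, 0, 0.09 and 29.5 TPM. Together they made up 2.01% and 0.130% of J without UVB and 7.92% and 4.73% with it, groups that did not overlap (exact permutation p = 0.333). Each of the 3 owed its sum mainly to 1 or 2 libraries. Trbj1-4, Trbj2-2 and these 3 were chosen after their values were seen. Trbj1-4 had 27.7, 1.45, 98.4 and 18.3 TPM and Trbj2-2 had 27.1, 0, 14.2 and 18.6 TPM.

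**Figure D3:**
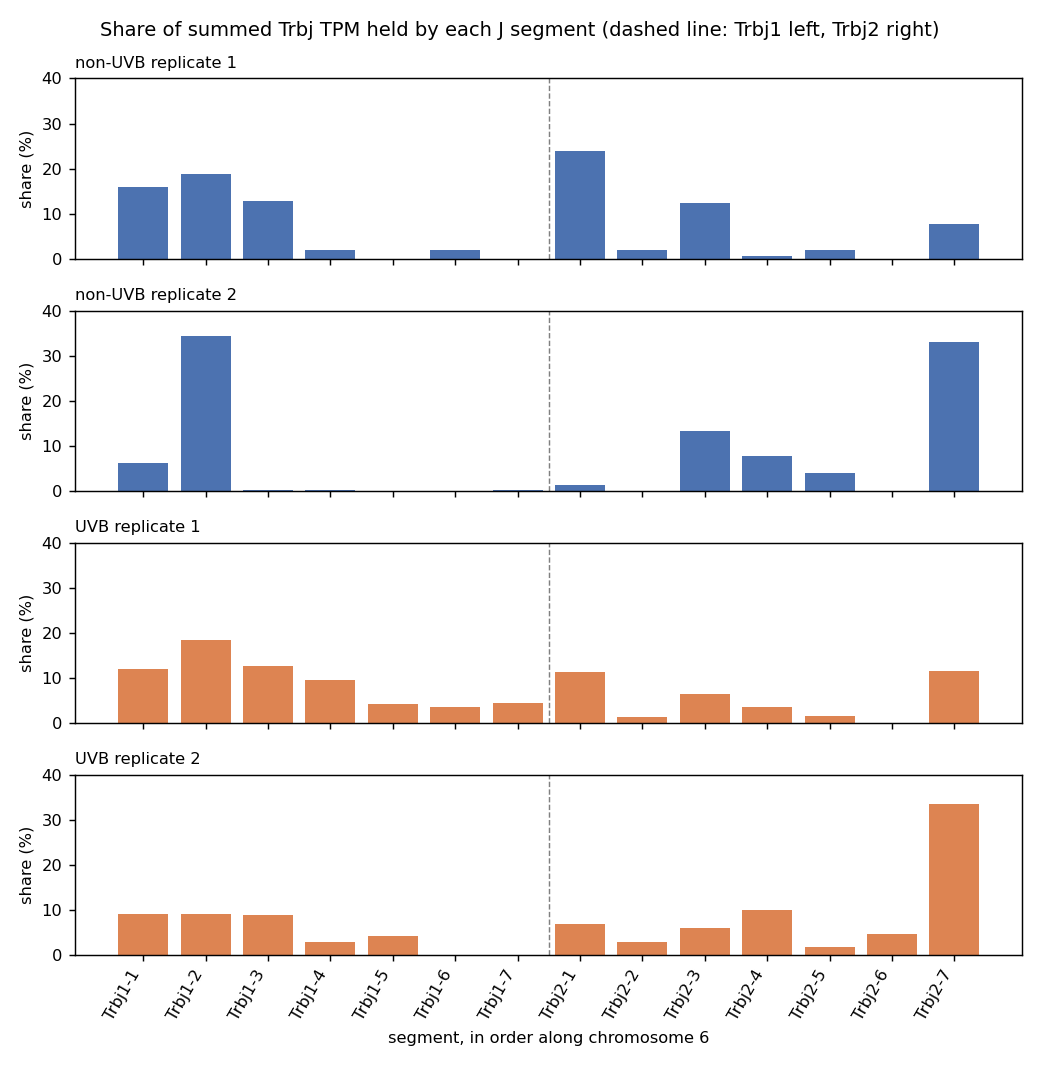
Share of summed J TPM (percent, vertical axis) for the 14 J segments in locus order, with 1 panel per library, bars from 0 and a dashed line between the Trbj1 and Trbj2 clusters. Trbj2-7 holds 33.1% and 33.5% in the libraries numbered 2, and Trbj1-5 has a bar in the UVB panels alone.

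The closest pair of J profiles was that of the libraries numbered 1, which had 75.7% of J in common. Libraries numbered 2 shared 65.3%, the UVB pair 65.2% and the non-UVB pair 49.3%. The remaining pairs shared 54.1% (non-UVB 1 and UVB 2) and 49.0% (non-UVB 2 and UVB 1). The effective number of J segments was 6.37 and 3.91 without UVB and 9.15 and 6.22 with it, so the groups overlapped (exact permutation p = 0.667). J segments at 1 TPM or more numbered 11 and 8 against 13 and 12, groups that did not overlap (exact permutation p = 0.333). The count of all genes at 1 TPM differed in the same direction, with 7825 and 8033 against 10317 and 10227.

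Between clusters, the Trbj2 share of J was 48.7% and 59.1% without UVB and 35.6% and 65.7% with it (means 53.9% ± 7.37 and 50.6% ± 21.3, SD, n = 2; exact permutation p = 1.0). Trbc2 held 50.6%, 62.9%, 52.9% and 68.9% of the 2 constant genes. Both shares were higher in the libraries numbered 2 than in those numbered 1. Trbc1 was at 1386, 830, 809 and 462 TPM and Trbc2 at 1418, 1405, 910 and 1026 TPM, in each library above every V and J segment. Every UVB value of both constant genes was below every non-UVB value (log2 difference -0.81 ± 0.49, limma adjusted p = 0.828, and -0.55 ± 0.28, limma adjusted p = 0.709). The share of all genes that separate in this way with differences under 1 log2 was not counted, so the separation is not shown to be unusual. The coding sequences of the 2 constant genes are near-identical, so reads could be split between them.

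Summed V and summed J each split by replicate number, while the summed constant genes split by UVB, at 2804 and 2235 TPM without it and 1719 and 1488 TPM with it (exact permutation p = 0.333). That p is the lowest that 2 against 2 libraries can give. Summed V TPM was 403 and 637 without UVB and 391 and 835 with it, means of 520 ± 166 and 613 ± 315 (SD, n = 2; exact permutation p = 1.0). Summed J TPM was 1400 (1399.58) and 655 against 1032 and 623, means of 1027 ± 526 and 828 ± 289 (exact permutation p = 0.667). The ratio of V to J TPM was therefore 0.288 and 0.378 in the libraries numbered 1 and 0.973 and 1.34 in those numbered 2 (non-UVB first). It was higher with UVB within each number, and the groups overlapped (exact permutation p = 0.667). Gamma-delta marker sums were 9609 and 8809 TPM where the ratio was low and 177 and 307 TPM where it was high, and their part in it was not tested. Trbj1 segments carried most of the excess, with 719 and 665 TPM in number 1 and 268 and 214 TPM in number 2. Trbd1, the D segment next to them, had 354 and 143 TPM in number 1 and 38.5 and 40.4 TPM in number 2. Trbd2 was at 28.3, 35.1, 26.9 and 4.90 TPM, and the D exons have 12 and 14 bases, so their TPM rests on very few positions. Relative to the constant genes, J stood at 0.499 and 0.293 without UVB and 0.600 and 0.419 with it, the opposite direction to summed J TPM.

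**Figure D4:**
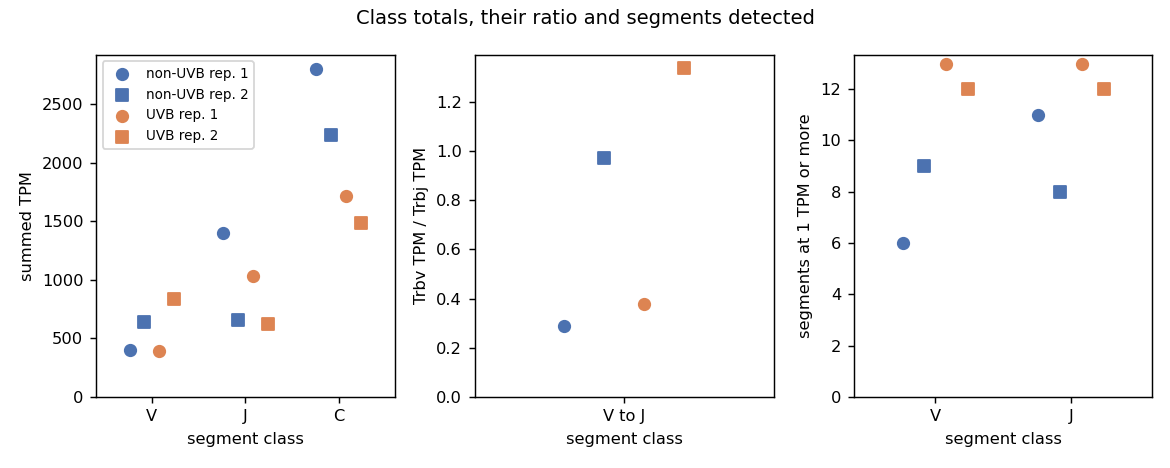
Left, summed TPM of V and J segments and of the 2 constant genes; middle, ratio of V to J TPM; right, number of segments at 1 TPM or more, with 1 point per library (blue non-UVB, orange UVB, circle replicate 1, square replicate 2). The ratio is 0.288 and 0.378 for circles and 0.973 and 1.34 for squares, while the V counts are 6 and 9 for blue and 13 and 12 for orange.

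In the fit over all genes, 15 V and 12 J segments had at least 1 TPM in 2 libraries and entered the test among 10286 genes. Of these 27, 0 passed an adjusted p of 0.05 with limma, as did 0 of all genes tested (0%). At an unadjusted p under 0.05, 5 V segments (Trbv4, Trbv13-3, Trbv15, Trbv19 and Trbv29) and Trbj1-5 were higher with UVB, beside 9.97% of all genes tested, and 0 were lower, beside 1.37%. The groups did not overlap and differed by at least 1 log2 for 7 of the 27 in the higher direction, beside 18.1% of all genes, namely Trbj1-5 and the 6 V segments. In the lower direction these were 5 of the 27, Trbv13-1, Trbv31, Trbj1-2, Trbj2-3 and Trbj2-5, beside 6.47% of all genes. The mean of log2(TPM + 1) was higher with UVB for 8 of 15 V and 8 of 12 J segments, and the mean TPM for 10 and 7, with median log2 differences of 0.19 and 0.24, against 0.26 over all genes tested. Segments present in 1 group alone pass the filter only through that group, so these counts describe the members and were not used as support.

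Of 25 genes of the receptor complex and of recombination and end joining, 15 were tested, 5 with a higher and 10 with a lower mean, 0 passed an adjusted p of 0.05 with limma, and 1 in each direction had an unadjusted p under 0.05 (median log2 difference -0.20). The signalling chains Cd3e (735, 255, 509 and 189 TPM), Cd3g (2560, 968, 2701 and 848 TPM), Cd3d (630, 319, 358 and 463 TPM) and Cd247 (768, 223, 275 and 266 TPM) overlapped between the groups. Trac, the alpha constant gene, was at 274, 2350, 554 and 878 TPM and Trdc, the delta constant gene, at 1394, 48.5, 1184 and 71.6 TPM, so the 2 ran in opposite order by number. Rag1 and Rag2, which cut the segments during recombination, and Dntt, which adds bases at the joins, were listed at 0 in every library, as was Ptcra, the partner of the beta chain before the alpha chain is made. Lig4 and Xrcc5, end-joining genes that cells of all kinds use, were listed at 0 as well, so a 0 here is not shown to be absence. The genes with an unadjusted p under 0.05, chosen after their values were seen, were Prkdc (16.3, 9.24, 0 and 0.35 TPM) and Xrcc6 (0, 0.28, 20.9 and 14.2 TPM), both of end joining, each with a limma adjusted p of 0.223. The 28 other genes that lie among the segments, including the trypsinogens Prss2, Try4 and Try5, summed to at most 0.103 TPM in any library.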

How the data were processed

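Per the labels' protocols, total RNA was made into libraries with a SMARTer ultra-low-input kit and read as single-end reads of 100 bases. HISAT2, StringTie and DESeq2 with GRCm38 (mm10) are named, per the submitters' processing notes, with no version or role. Annotation release, strandedness and cell sorting were not given in the sources used here. Overlapping or antisense genes therefore cannot be separated. Per the file headers, the authors deposited coverage (mean read depth per base), FPKM and TPM for each gene and library. TPM sums to 1000000 in every library, and no read numbers were used.

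Rows of a gene ID were summed, which joined 55487 genes, 55141 of them in GENCODE M21. All 49 segments had the same coordinates there. The ratio of coverage to FPKM gave the bases behind FPKM, and coverage times exon length gave aligned bases. No counting interval is given. Shares are of TPM within V or J, and shares from coverage differed by at most 0.824 percentage points. Shares of aligned bases, which weight a segment by its length, moved more. Trbv19 in UVB 1 held 31.4% of V by them, against 23.1% by TPM. With them the UVB minus non-UVB difference went from 0.544 to 0.0497 in the effective number of V segments. In the leading V share it went from 1.38 to 5.25 points, and in the Trbj2 share from -3.25 to -3.49 points. Genes with at least 1 TPM in 2 libraries were compared as log2(TPM + 1), which understates changes of low genes, with limma 3.58.1 in R 4.3.3 (intensity trend, Benjamini-Hochberg adjustment over all genes tested, threshold 0.05). Single values were compared by exact two-sided permutation of libraries.

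Members and gene lists were chosen with earlier results of these data known. The rule for named segments took the 12 V segments of highest mean share, the leading V of each library, J segments with a mean share of at least 5%, and the 3 V segments with the largest share gain and loss among those of at least 1%. It also took the D, constant and CD3 genes, Trac and Trdc. Other segments are said to be chosen after their values were seen. Of the cell type marker lists, 1 is not reported here. Alternatives changed the pseudocount, filter, unit, scaling, spread model and pseudogenes, left out each library, and added the replicate number as a block.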

Additional observations from a re-analysis of the deposited data

How the results depend on the processing

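In the fit over all genes, limma called 0 genes under every alternative, with 654 to 1157 genes higher and 59 to 275 lower at an unadjusted p under 0.05. The filter, the spread model and the replicate block cannot move a log2 difference in this design. Under the other 8 alternatives 221 of 256 differences of 32 genes kept their direction and 35 in 18 genes reversed. Trbv4, Trbv13-3, Trbv15, Trbv16, Trbv19, Trbv29 and Trbj1-5 reversed in none, but with a pseudocount of 0.1 TPM Trbv4 went from 4.64 to 7.91, Trbv13-3 from 4.29 to 7.53, Trbv16 from 3.22 to 6.21, Trbv29 from 5.34 to 8.18 and Trbj1-5 from 5.12 to 8.40. Quantile normalization and median scaling moved the median of all genes from 0.26 to -0.19 and -0.35. Under median scaling Trbv13-2 went from 0.39 to -0.21, Trbj2-1 from 0.40 to -0.21, Trbj2-7 from 0.03 to -0.57 and Trdc from 0.16 to -0.45. A pseudocount of 0.1 TPM turned Trbv20 from -0.34 to 0.73. Relative to the constant genes, summed J was 0.114 higher with UVB, against -200 (-199.6) TPM. The cause was not tested.

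Leaving out each library in turn, the UVB minus non-UVB difference ran from -1.44 to 2.52 in the effective number of V segments, from -11.0 to 13.7 points in the leading V share, from -18.3 to 11.8 points in the Trbj2 share, from -129 to 315 in summed V TPM, from -572 to 173 in summed J TPM and from -0.252 to 0.710 in the V to J ratio. The number of V segments at 1 TPM kept its direction, at 3.5 to 6.5 more with UVB, and was 5.5, 4 and 3 more at 0.1, 5 and 10 TPM, thresholds chosen after seeing the data. The log2 differences that changed sign ran from -0.84 to 1.63 for Trbv13-2, -2.34 to 1.32 for Trbv1, -3.25 to 2.57 for Trbv20, -6.04 to 0.64 for Trbv3, -3.84 to 2.23 for Trbv2, -4.35 to 1.24 for Trbv12-2, -1.38 to 1.05 for Trbj1-1, -1.07 to 5.46 for Trbj1-3, -2.22 to 3.02 for Trbj2-1, -0.065 to 2.28 for Trbj2-4, -0.46 to 0.53 for Trbj2-7, -2.20 to 0.97 for Trbd1, -1.75 to 1.34 for Trac, -2.25 to 2.57 for Trdc, -1.24 to 0.29 for Cd3e, -0.89 to 0.78 for Cd3g, -0.63 to 0.35 for Cd3d and -1.50 to 0.28 for Cd247. Others moved by over 1.5 times with no change of sign, from -2.79 to -0.55 for Trbv31, -4.55 to -1.52 for Trbv13-1, 1.35 to 5.10 for Trbv16, -2.07 to -0.36 for Trbj1-2, -1.79 to -0.80 for Trbj2-3, -1.21 to -0.41 for Trbc1 and -2.46 to -0.22 for Trbd2.

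Replicate numbers are shared between groups, but no label says what they mark, and with 2 pairs the correlation of deviations (0.165 for the libraries numbered 1) cannot show pairing. With the replicate number as a block limma called 0 genes (984 higher and 126 lower at an unadjusted p under 0.05), and no call changed. The block leaves group differences as they were by construction, 0.544 for the effective number of V segments. No read numbers were used. Coverage gave aligned bases per segment, but no depth limit was set from them.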
